A study of Mus musculus with 6 samples.

Results

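Interleukins and their receptors were read in mouse blood progenitors that carry the leukaemia fusion MLL-ENL, with or without LIN28B. Members were the protein-coding genes of the deposited table whose symbol begins with Il and a digit, without Il7r and Il3ra. The rule gave 82 gene IDs with 80 symbols, of 55471 IDs in the table and 21933 protein-coding ones. They fell into 36 ligands, 40 receptor chains and 6 other genes, which are antagonists, binding proteins and the enzyme gene Il4i1. The cells were bone marrow GMLPs, progenitors of the granulocyte, monocyte and lymphoid lineages. They had been sorted as Lin- Kit+ Sca1+ cells that were positive for CD48 and negative for CD150. In both groups the sorted cells were cultured for 3 days with doxycycline (DOX). The groups were L28BME, from mice with LIN28B and MLL-ENL (3 libraries), and ME, from mice with MLL-ENL alone (3 libraries). The labels give no age or strain and do not say which promoter drives either transgene, and both groups carry the fusion, so there is no group without it. Nothing states that the replicates are separate animals or cultures, and the p-values therefore reflect only the spread among these 6 samples, which may be technical.

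Interleukins are small secreted proteins through which blood, immune and stromal cells signal to each other. Most bind receptors without kinase activity of their own, which pair a ligand-specific chain with a shared chain and signal through JAK kinases and STAT factors. The IL-1 and IL-18 receptors instead recruit the adaptor MyD88 and IRAK kinases, and the IL-17 receptors recruit the adaptor Act1. In bone marrow, such signals steer progenitors between the myeloid and lymphoid lineages. LIN28B binds RNA, is active in fetal blood formation and keeps let-7 microRNAs from maturing.

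Values are TPM, which divide abundance by transcript length and bring each library to the same total. Their depth is unknown, so they carry no counting interval. Lin28b was at 11.2, 11.7 and 11.9 TPM in L28BME and was listed at 0 in all 3 ME libraries. Those values belong to the mouse gene model and may not measure an introduced LIN28B. The sort genes summed to 304 to 321 TPM in L28BME and 388 to 416 TPM in ME, and Ly6a, the gene of Sca1, was at 1.38 to 3.18 TPM in L28BME and 9.64 to 11.8 TPM in ME. Both Ly6a and Cd48 were lower in L28BME. Kit averaged 79.2 TPM in L28BME and 94.1 TPM in ME and was not called (limma adjusted p = 0.311). Slamf1, the gene of CD150, for which the cells were sorted as negative, is part of the sum and was not tested. It was at 0.526 to 0.706 TPM in L28BME and 0 to 0.209 TPM in ME. The 5 granulocyte-monocyte progenitor genes, which include Mpo and Elane, summed to 6960 to 7821 TPM in L28BME and 9897 to 10029 TPM in ME, and 4 of them were lower. Of 6 megakaryocyte markers, all tested, 5 were higher, with Pf4 at 52.4 ± 6.08 TPM in L28BME and 19.3 ± 1.53 TPM in ME (SD, n = 3 each), and the list summed to 175 to 191 TPM in L28BME and 116 to 121 TPM in ME. Of 9 stroma and endothelium markers, 2 were tested and 1 (Pecam1) was lower, and Cxcl12 was listed at 0. They summed to 113 to 118 TPM in L28BME and 164 to 165 TPM in ME. Pecam1 alone made up most of that sum, at 110 to 115 TPM in L28BME and 162 to 163 TPM in ME. Vwf, the other tested marker, averaged 2.42 TPM in L28BME and 1.67 TPM in ME and was not called. The 5 erythroid markers summed to 5.43 to 8.66 TPM in L28BME and 2.89 to 6.14 TPM in ME, and these ranges overlapped. Of these markers 3 were tested and 0 were called by limma. Epor came nearest to a call, at 3.09 TPM in L28BME and 1.54 TPM in ME (limma adjusted p = 0.0786). For these and all later marker lists, the shares over all genes tested were 8.28% higher and 6.6% lower. The part of these cell types in the interleukin results was not tested.

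The cells expressed many receptor chains and few ligands. A gene was tested if it reached 1 TPM in at least 3 of the 6 libraries, which 27 of 40 receptor genes, 6 of 36 ligand genes and 3 of 6 other genes did. Of the ligands, 17 were listed at 0 in every library and 13 were above 0 but below the filter. Among the receptors, 7 were listed at 0 and 6 lay below the filter. The ligands summed to 144, 143 and 143 TPM in L28BME, against 99.4, 102 and 122 TPM in ME. The sums of L28BME all lay above those of ME, with means of 143.6 ± 0.718 TPM in L28BME and 107.8 ± 12.2 TPM in ME (SD, n = 3 each). Receptor genes summed to 609, 632 and 636 TPM in L28BME, against 621, 652 and 672 TPM in ME, and these ranges overlapped. The receptor sum was 4.21 to 4.45 times the ligand sum in L28BME and 5.52 to 6.38 times the ligand sum in ME.

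Just 2 genes carried the ligand sum: Il12a and Il16 made up 86.9 to 89.2% of it in L28BME and 82.9 to 86.4% in ME. Without them the ligands summed to 16.9 ± 1.64 TPM in L28BME and 16.5 ± 3.85 TPM in ME (SD, n = 3 each). The difference in the ligand sum was therefore a difference in these 2 genes. The receptor sum was led by Il2rg, the common gamma chain, with 26.7 to 29.98% of it in L28BME and 25.7 to 28.7% in ME. Sums over chosen genes were given no test.

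**Figure D1:**
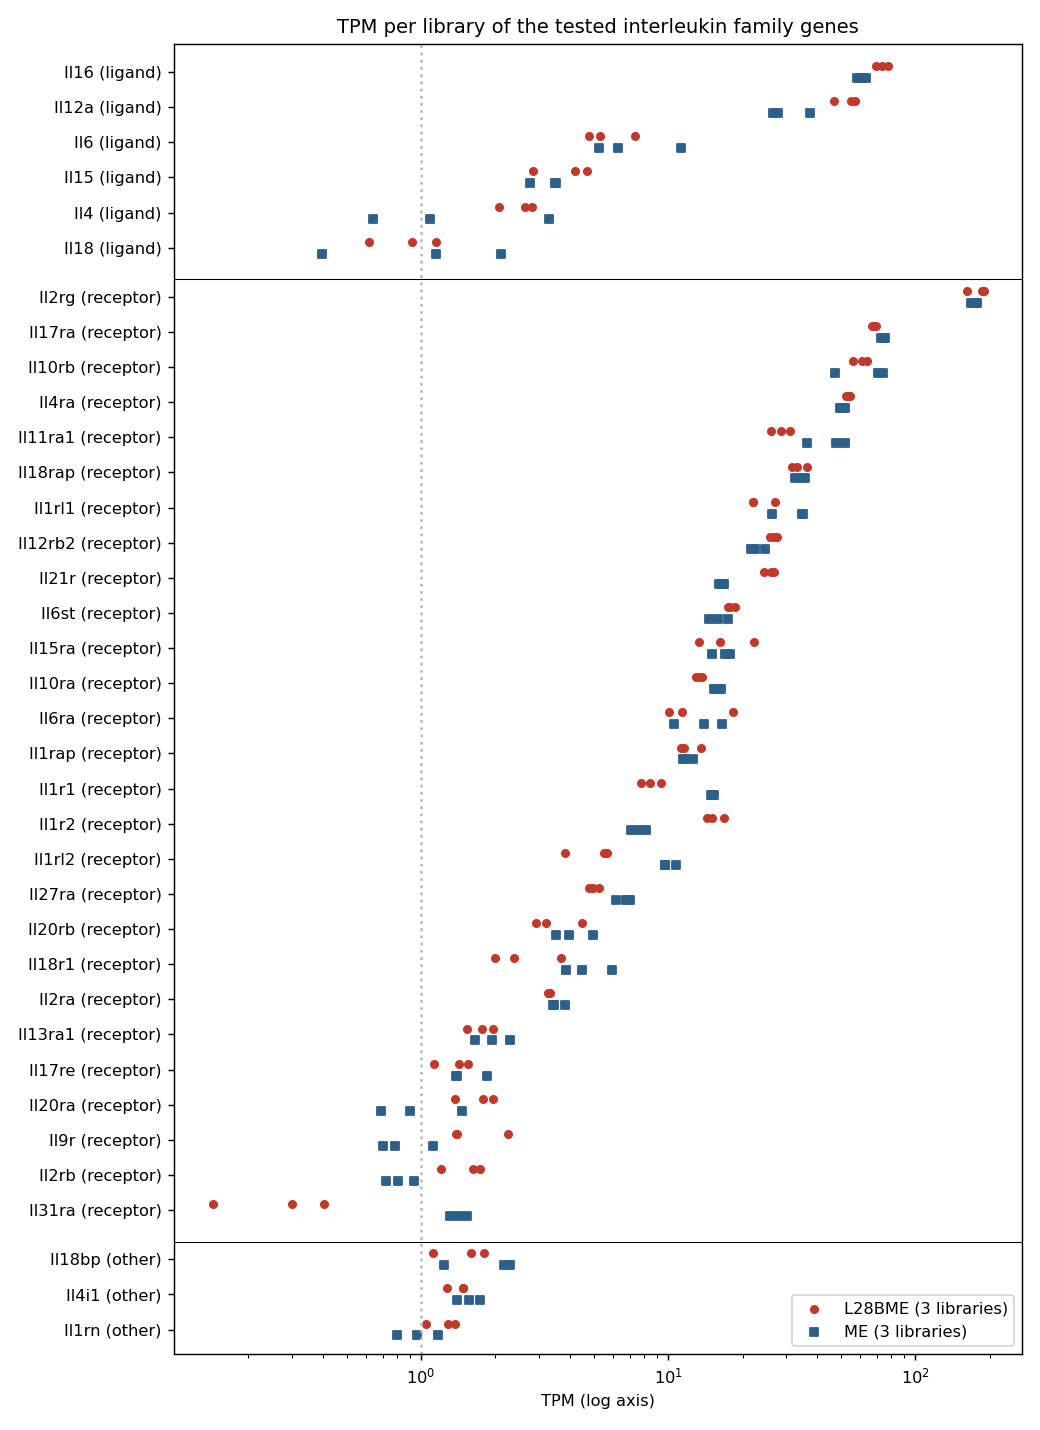
TPM of each tested interleukin family gene in each library, on a log axis, with L28BME as circles above ME as squares and the dotted line at 1 TPM. Receptors fill the range from Il2rg, above 160 TPM in all libraries, down to Il31ra, below 1 TPM in the 3 L28BME libraries, while only the ligands Il16 and Il12a exceed 12 TPM.

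Of the 36 tested members, 4 were higher in L28BME, 6 were lower and 26 did not pass. The test was limma on log2(TPM + 1), and a call needed a p under 0.05 after Benjamini-Hochberg adjustment over 13348 genes. In all, 27.8% of tested members were called, against 14.9% of all genes tested. The share higher was 11.1%, against 8.28% of all genes, and the share lower was 16.7%, against 6.6% of all genes. L28BME and ME had no overlapping values for 17 of the 36, or 47.2%, against 36.7% of all genes. Il31ra passed the filter only through ME and Il2rb only through L28BME. With 1 group below 1 TPM throughout, each gene could pass only with all values of the other group above it. Their lack of overlap therefore gives no support.

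The called ligands were higher in L28BME, and most called receptors were lower. Among 6 tested ligands, 2 were higher (Il12a and Il16) and 0 were lower by limma, and at an unadjusted p under 0.05 the counts were also 2 and 0. Their median log2 fold change was 0.23, and 33.3% of these 6 genes were higher, against 8.28% of all genes tested. Of 27 tested receptors, 2 were higher (Il1r2 and Il21r) and 6 were lower (Il1r1, Il1rl2, Il31ra, Il11ra1, Il27ra and Il10ra), with a median of -0.06. That is 7.41% higher, against 8.28% of all genes tested, and 22.2% lower, against 6.6% of all genes tested. Il31ra passed the filter only through ME, so with all L28BME values below 1 TPM it could be tested only as lower in L28BME. The 3 other genes tested, Il1rn, Il18bp and Il4i1, gave 0 limma calls, 0 also at an unadjusted p under 0.05, and a median of -0.09. The median over all genes tested was 0.0033. The difference between ligands and receptors was not itself tested. The median absolute log2 fold change was 0.21 in the tested members and 0.14 in all genes tested.

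**Figure D2:**
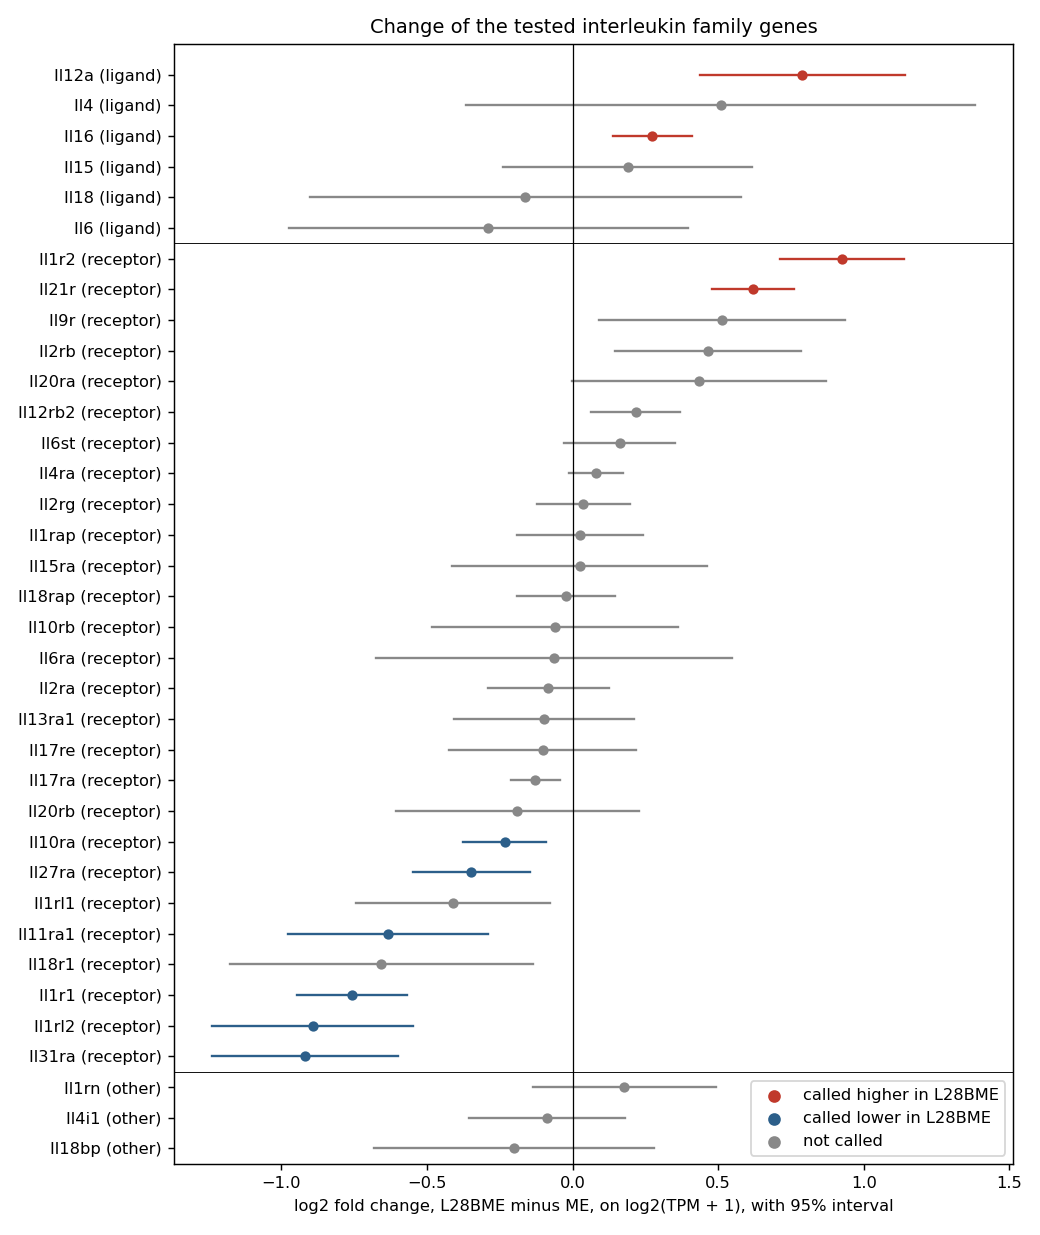
Log2 fold change of each tested member, L28BME minus ME, on the log2(TPM + 1) scale, with its 95% interval from limma (3 libraries per group). Il1r2 and Il12a stand furthest to the right and Il31ra, Il1rl2 and Il1r1 furthest to the left, while the genes in grey did not pass the adjusted test.

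Among the IL-1 receptor genes, the decoy receptor rose while the signalling receptor fell. Il1r2 (ENSMUSG00000026073), which encodes a receptor that binds IL-1 without signalling, was at 16.8, 14.4 and 14.99 TPM in L28BME, against 8.15, 7.63 and 7.07 TPM in ME. All 3 L28BME values lay above all ME values, a 2.02-fold difference in the means (log2 fold change 0.93, SE 0.087, limma adjusted p = 0.00205). Il1r1 (ENSMUSG00000026072), the receptor through which IL-1 signals, was at 7.79, 9.32 and 8.42 TPM in L28BME, against 15.3, 14.99 and 14.9 TPM in ME. Here every L28BME library was below every ME library, and the log2 fold change was -0.76 (SE 0.078, limma adjusted p = 0.00268). The ratio of Il1r2 to Il1r1 TPM was 2.16, 1.54 and 1.78 in L28BME, against 0.533, 0.509 and 0.475 in ME. The decoy transcript was thus the more abundant of the pair in each L28BME library and the less abundant in each ME library. Leaving out any 1 library kept both calls.

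In bulk RNA, fewer cells of a type and less RNA per cell cannot be told apart. IL1R2 is a known product of mature neutrophils. Of 10 neutrophil marker genes, 7 were tested and 5 were higher in L28BME, and the list summed to 536 to 558 TPM in L28BME and 213 to 222 TPM in ME. S100a8 and S100a9 made up most of that sum, while Retnlg, a marker of late neutrophils, was listed at 0 except for 0.259 TPM in 1 L28BME library, and Ly6g was at 0.785 to 1.18 TPM in L28BME and 0.4999 to 0.743 TPM in ME. Of 10 macrophage and monocyte markers, 5 were tested and 2 were lower, with sums of 36.8 to 39.5 TPM in L28BME and 49.4 to 51.8 TPM in ME and C1qa listed at 0. The part of these cell types in the IL-1 receptor result was not tested.

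Il1rl2 (ENSMUSG00000070942), which encodes the receptor of the IL-36 cytokines, also fell. It was at 5.65, 5.52 and 3.84 TPM in L28BME, against 9.68, 10.7 and 9.70 TPM in ME. The groups did not overlap, and the mean of L28BME was 0.498 times that of ME (log2 fold change -0.89, SE 0.141, limma adjusted p = 0.0113). Il1rl1 encodes ST2, the receptor of the alarmin IL-33, and was at 22.1, 22.02 and 26.95 TPM in L28BME, against 26.3, 35.03 and 34.7 TPM in ME. The highest L28BME value lay just above the lowest ME value, and the gene was not called (log2 fold change -0.41, limma adjusted p = 0.104). Without ME replicate 1, the lowest of the ME values, it was called (limma adjusted p = 0.0413). ST2 marks innate lymphoid cells and mast cells. Of 5 innate lymphoid markers, Il1rl1 among them, 2 were tested and 1 (Thy1) was lower. They summed to 101 to 115 TPM in L28BME and 168 to 185 TPM in ME. Thy1 made up most of that sum, at 77.5 to 91.5 TPM in L28BME and 140 to 150 TPM in ME. Nearly all the rest was Il1rl1 itself. Rora and Gata3 were below 0.7 TPM in every library and Areg was listed at 0. Of 10 mast cell and basophil markers, 6 were tested and 2 were lower, with sums of 451 to 461 TPM in L28BME and 525 to 558 TPM in ME and with Mcpt1 and Mcpt4 listed at 0. The part of these cells in the Il1rl1 values was not tested.

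The IL-18 receptor chains differed from each other in level. Il18rap, its accessory chain, was at 36.5, 33.1 and 31.6 TPM in L28BME, against 35.9, 34.4 and 32.6 TPM in ME, and the groups overlapped throughout (log2 fold change -0.02, 95% interval -0.19 to 0.14, limma adjusted p = 0.857). Il18r1, the binding chain, averaged 2.69 ± 0.893 TPM in L28BME and 4.77 ± 1.06 TPM in ME (SD, n = 3 each). Its groups did not overlap, but it was not called (log2 fold change -0.66, SE 0.213, limma adjusted p = 0.0981). Il1rap, the accessory chain shared by the IL-1, IL-33 and IL-36 receptors, averaged 12.1 ± 1.23 TPM in L28BME and 11.9 ± 0.654 TPM in ME, with a 95% interval of -0.19 to 0.24 for the log2 fold change.

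These receptor genes lie side by side. Il1r2, Il1r1, Il1rl2, Il1rl1, Il18r1 and Il18rap follow each other on the plus strand of mouse chromosome 1 (GRCm38) over 477.6 kb, from 40074079 to 40551705. Il1r1 runs from 40225080 to 40317257 and Il1rl2 starts 7.35 kb after it. Il1r2 was the only one of the 6 that was called higher in L28BME. Of the next genes outward, Map4k4 averaged 134.9 TPM in L28BME and 99.4 TPM in ME (log2 fold change 0.40, limma adjusted p = 0.250), and Slc9a4 was listed at 0.

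**Figure D3:**
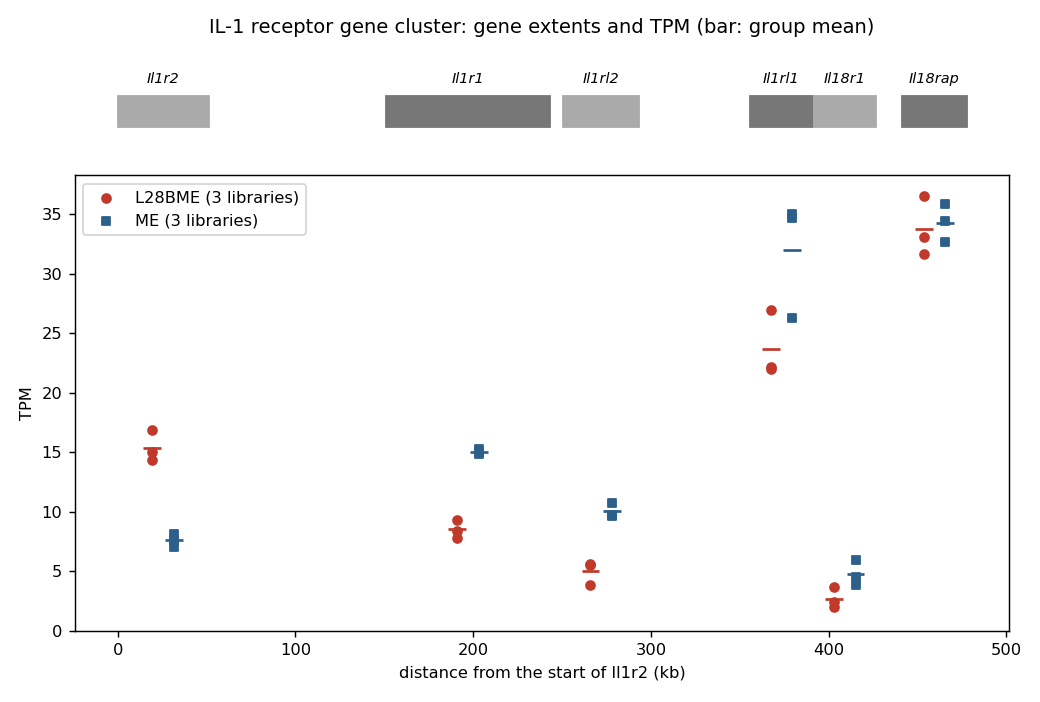
The 6 genes of the IL-1 receptor cluster drawn to scale as grey bars (distance in kb from the start of Il1r2) above their TPM in each library, with short lines at the group means. L28BME lies above ME at Il1r2 and below it at Il1r1 and Il1rl2, while the values of Il18rap overlap between groups.

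The 250 bases before a RefSeq start of Il1r2 and of Il1r1 (GRCm38.p6, plus strand) are shown because the pair moved in opposite directions. Motifs were sought on both strands and are in capitals: a STAT motif (TTCNNNGAA), an NF-kB motif (GGG and CC with 5 bases between them), a C/EBP motif (TTGCNNAA), a RUNX motif (TGTGGT) and a TATA box (TATAAA). The Il1r2 window is chr1:40085843-40086092 and holds 1 STAT motif, a match that 7.02% of 32851 RefSeq promoters of the same length hold. The Il1r1 window is chr1:40224830-40225079, at the first of its 2 starts in the table, and holds 1 C/EBP motif, which 9.56% of promoters hold. The window at its other start, chr1:40266336-40266585, holds no C/EBP motif and 1 NF-kB motif, which 45.8% of promoters hold.
Il1r2: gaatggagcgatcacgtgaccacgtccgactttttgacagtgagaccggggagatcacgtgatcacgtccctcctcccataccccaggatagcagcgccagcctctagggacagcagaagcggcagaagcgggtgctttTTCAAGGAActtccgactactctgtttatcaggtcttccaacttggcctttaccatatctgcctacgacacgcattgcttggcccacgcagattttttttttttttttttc
Il1r1: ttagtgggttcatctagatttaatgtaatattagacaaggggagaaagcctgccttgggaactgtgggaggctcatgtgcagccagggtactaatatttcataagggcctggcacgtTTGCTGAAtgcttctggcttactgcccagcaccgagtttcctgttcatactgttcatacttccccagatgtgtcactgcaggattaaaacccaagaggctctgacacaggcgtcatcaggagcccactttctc
A gene-level TPM does not tell which start was used, and a match of letters is not a measured binding site.

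The ligands of this receptor family were scarce. Il18 was at 0.918, 1.15 and 0.615 TPM in L28BME, against 1.15, 0.399 and 2.11 TPM in ME (limma adjusted p = 0.766). Il1b reached 1 TPM in 1 library only, with 0.609, 0.621 and 0.868 TPM in L28BME and 0.388, 1.07 and 0.266 TPM in ME. Il1a and Il33 stayed at or below 0.163 TPM, and the IL-36 agonist genes Il1f6 and Il1f8 were listed at 0, while Il1f9 was at most 0.725 TPM. Il1rn, the IL-1 receptor antagonist, averaged 1.24 ± 0.167 TPM in L28BME and 0.978 ± 0.184 TPM in ME (limma adjusted p = 0.414). Il18bp, a secreted trap for IL-18, averaged 1.505 ± 0.353 TPM in L28BME and 1.90 ± 0.577 TPM in ME (limma adjusted p = 0.551, n = 3 each). Its exons overlap those of Numa1 on the opposite strand, which averaged 138 TPM, and whether strand was used in quantification is not given in the sources used here.

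Il12a had the largest log2 fold change of the 6 tested ligand genes. It encodes p35, a subunit that pairs with p40 to form IL-12 and with EBI3 to form IL-35. Il12a (ENSMUSG00000027776) was at 55.2, 47.1 and 57.2 TPM in L28BME, against 27.7, 26.6 and 37.4 TPM in ME. Each L28BME library was above each ME library, a 1.74-fold difference in the means (log2 fold change 0.79, SE 0.144, limma adjusted p = 0.0186). The call was lost without L28BME replicate 1 or 3 or ME replicate 1 or 2 (limma adjusted p = 0.0592 to 0.0654), with the sign unchanged. Its partner Ebi3, no member by name, was at 46.0, 39.8 and 48.1 TPM in L28BME, against 19.7, 26.7 and 23.8 TPM in ME (log2 fold change 0.91, limma adjusted p = 0.00700). Il12b, the p40 gene, was listed at 0 in all 6 libraries, Il23a (p19 of IL-23) was at most 0.374 TPM, and Il27 (p28, the other partner of EBI3) was at 0.471 to 0.605 TPM in L28BME and 0.380 to 0.429 TPM in ME. The ratio of Il12a to Ebi3 TPM was 1.184 to 1.2003 in L28BME and 0.997 to 1.57 in ME.

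**Figure D4:**
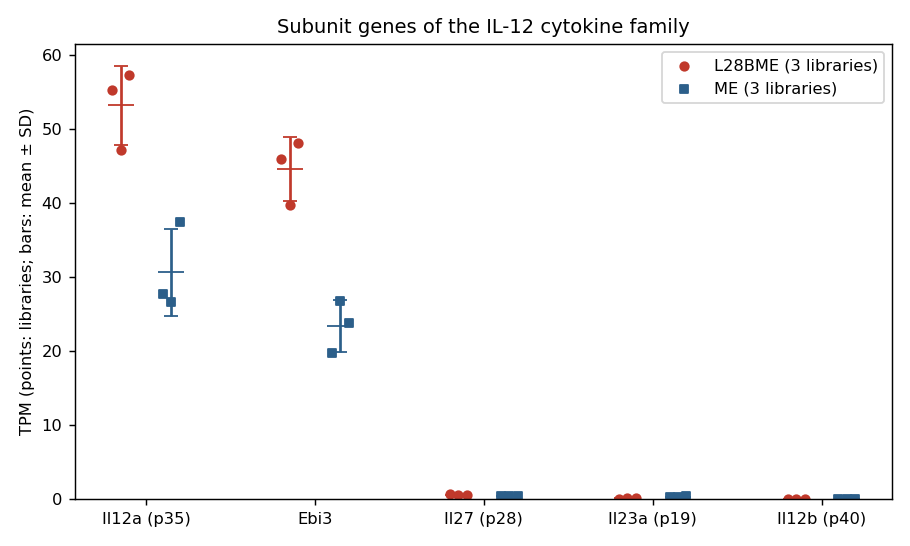
TPM of the subunit genes of IL-12, IL-23, IL-27 and IL-35, with points for libraries and bars for the mean ± SD (n = 3 per group). Il12a and Ebi3 are higher in L28BME, while Il27 and Il23a stay below 1 TPM and Il12b is listed at 0.

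Because Il12a and Ebi3 rose together, the 250 bases before their RefSeq starts are shown (GRCm38.p6, plus strand), with the same motifs in capitals. The Il12a window is chr3:68691174-68691423, at the second of its 2 starts, and holds 2 overlapping NF-kB motifs, which read the same stretch on either strand, and 1 RUNX motif. The window at its first start, chr3:68690394-68690643, holds 0 of the 5 motifs. The Ebi3 window is chr17:55952373-55952622 and likewise holds 2 overlapping NF-kB motifs.
Il12a: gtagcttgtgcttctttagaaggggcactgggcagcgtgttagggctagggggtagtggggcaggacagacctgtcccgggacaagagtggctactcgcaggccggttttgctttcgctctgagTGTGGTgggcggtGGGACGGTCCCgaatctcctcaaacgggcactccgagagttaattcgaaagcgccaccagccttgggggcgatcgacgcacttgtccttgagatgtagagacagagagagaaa
Ebi3: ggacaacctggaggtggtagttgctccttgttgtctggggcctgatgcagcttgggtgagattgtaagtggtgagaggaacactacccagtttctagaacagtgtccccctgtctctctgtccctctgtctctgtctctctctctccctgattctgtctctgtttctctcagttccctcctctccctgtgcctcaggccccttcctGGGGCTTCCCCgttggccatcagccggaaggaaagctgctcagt
Of 32851 RefSeq promoters of this length, 45.8% hold the NF-kB motif and 14% hold the RUNX motif. Here too, a match of letters is not a measured binding site.

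Of the IL-12 and IL-6 family receptors, Il11ra1, Il27ra and Il31ra were called lower. Il11ra1 (ENSMUSG00000073889), which binds IL-11, was at 28.7, 31.2 and 26.04 TPM in L28BME, against 36.4, 47.8 and 52.03 TPM in ME. The groups did not overlap (log2 fold change -0.63, SE 0.141, limma adjusted p = 0.0338), but the call held in only 1 of the 6 fits without a library, that without ME replicate 1, and was lost in the other 5 (limma adjusted p = 0.0639 to 0.104). Il27ra (ENSMUSG00000005465), a chain of the IL-27 receptor, was at 4.77, 4.97 and 5.25 TPM in L28BME, against 6.18, 6.72 and 6.99 TPM in ME. It was lower in every L28BME library (log2 fold change -0.35, SE 0.082, limma adjusted p = 0.0400). The call was lost without any 1 library (limma adjusted p = 0.0630 to 0.121).

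Il31ra (ENSMUSG00000050377), the IL-31 receptor, had low values of 0.406, 0.144 and 0.300 TPM in L28BME, against 1.42, 1.31 and 1.53 TPM in ME. The gene passed the filter only through ME, so with all L28BME values below 1 TPM it could be tested only as lower in L28BME. Its log2 fold change was -0.92 (SE 0.131, limma adjusted p = 0.00781), on a scale that understates the change of low genes. Its exons share bases on the same strand with the gene model Gm3226, which averaged 7.08 TPM in L28BME and 7.69 TPM in ME. With both summed, the log2 fold change was -0.27 and the call was lost (limma adjusted p = 0.132).

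The shared chain of the family did not pass the test. Il6st, which encodes the signalling chain gp130 of the IL-6 and IL-11 receptors, averaged 17.99 ± 0.649 TPM in L28BME and 16.006 ± 1.44 TPM in ME (limma adjusted p = 0.230, n = 3 each). Il6ra, the IL-6 binding chain, varied within groups, at 11.3, 10.1 and 18.4 TPM in L28BME and 14.02, 10.5 and 16.5 TPM in ME. Il6 itself averaged 5.82 ± 1.37 TPM in L28BME and 7.60 ± 3.23 TPM in ME, with 1 ME library at 11.3 TPM. Il12rb2, the signal-transducing chain of the IL-12 receptor, was at 27.5, 26.8 and 25.9 TPM in L28BME, against 21.7, 22.4 and 24.6 TPM in ME. Its groups did not overlap and it was not called (log2 fold change 0.22, SE 0.062, limma adjusted p = 0.0718). Its partner Il12rb1 was at most 0.103 TPM, and Il12rb2 overlaps Serbp1 on the opposite strand, which averaged 428 TPM.

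Of the receptors for IL-2, IL-4, IL-9, IL-13, IL-15 and IL-21, most of which use the common gamma chain, Il21r rose and the shared chain did not pass the test. Il21r (ENSMUSG00000030745, chromosome 7, 125603429 to 125633570, plus strand of GRCm38) encodes the IL-21 receptor and was at 26.2, 24.5 and 26.8 TPM in L28BME, against 15.99, 16.9 and 16.5 TPM in ME. The groups were far apart relative to their spread, and Il21r had the smallest p of all tested members (1.57-fold, log2 fold change 0.62, SE 0.057, limma adjusted p = 0.00189). Leaving out any 1 library kept the call. Its ligand gene Il21 was listed at 0. Il2rg, the common gamma chain and the most abundant member, was at 162.7, 189.6 and 185.7 TPM in L28BME, against 178.6, 167.8 and 176.9 TPM in ME. Its groups overlapped, and the 95% interval of the log2 fold change was -0.12 to 0.20 (limma adjusted p = 0.749).

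The other tested receptor chains for these cytokines were not called. Il4ra, shared by IL-4 and IL-13, was at 54.3, 52.6 and 53.5 TPM in L28BME, against 49.7, 49.8 and 51.9 TPM in ME (log2 fold change 0.08, limma adjusted p = 0.225). Il2rb, the chain shared by IL-2 and IL-15, averaged 1.52 ± 0.274 TPM in L28BME and 0.821 ± 0.108 TPM in ME (limma adjusted p = 0.0685). Il9r, the IL-9 receptor, averaged 1.68 ± 0.498 TPM in L28BME and 0.865 ± 0.219 TPM in ME (limma adjusted p = 0.109). Both genes had no overlap between groups and sat close to the filter of 1 TPM. Il2rb passed that filter only through L28BME, so with all ME values below 1 TPM its lack of overlap was fixed by the filter. Il15ra averaged 17.2 ± 4.50 TPM in L28BME and 16.6 ± 1.40 TPM in ME, Il2ra averaged 3.30 ± 0.0296 TPM in L28BME and 3.55 ± 0.225 TPM in ME, and Il13ra1, which pairs with the product of Il4ra and not with the common gamma chain, averaged 1.76 ± 0.213 TPM in L28BME and 1.96 ± 0.313 TPM in ME (SD, n = 3 each).

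IL-2 and IL-21 receptors are known from lymphocytes. Of 9 T and NK cell markers, 1 was tested (Cd5) and it was higher, the list summed to 5.90 to 5.97 TPM in L28BME and 1.88 to 2.91 TPM in ME, and Cd3e and Ncr1 were listed at 0. The B cell marker Cd79b was higher, at 54.5 to 59.2 TPM in L28BME and 26.7 to 27.99 TPM in ME. Vpreb1, the other tested B cell marker, averaged 2.03 ± 0.736 TPM in L28BME and 2.13 ± 0.833 TPM in ME (log2 fold change -0.03, limma adjusted p = 0.953), and Pax5 never exceeded 0.185 TPM. Of 6 dendritic cell markers, 4 were tested, 2 (Flt3 and Ccr7) were higher and 1 (Itgax) was lower. Siglech, the remaining tested marker, averaged 0.843 TPM in L28BME and 1.43 TPM in ME and was not called (limma adjusted p = 0.0995). The 6 markers summed to 201 to 206 TPM in L28BME and 102 to 110 TPM in ME. Flt3 alone made up most of that sum, at 185 to 189 TPM in L28BME and 92.6 to 100.5 TPM in ME. Xcr1 and Clec9a never exceeded 0.0989 TPM. The part of these cells in the differences of Il21r, Il2rb, Il12a and Ebi3 was not tested.

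Of the ligands of these receptors, Il15 and Il4 were tested. Il15 averaged 3.91 ± 0.974 TPM in L28BME and 3.26 ± 0.426 TPM in ME (limma adjusted p = 0.527, n = 3 each). Il4, a type 2 cytokine, was at 2.07, 2.81 and 2.62 TPM in L28BME, against 0.638, 3.30 and 1.09 TPM in ME. The ME library with 3.30 TPM lay above all of L28BME, and the gene was not called (log2 fold change 0.51, limma adjusted p = 0.402). Without that library, ME replicate 2, it was called (limma adjusted p = 0.0449). Il13, a related type 2 cytokine, was at 0.930, 2.28 and 1.004 TPM in L28BME, against 0.334, 0 and 0.511 TPM in ME, and did not pass the filter. All 3 L28BME values lay above all ME values. Type 2 cytokines are made by mast cells, basophils and eosinophils. Of 7 eosinophil markers, 6 were tested and 3 were higher, with sums of 96.3 to 100.3 TPM in L28BME and 71.5 to 78.5 TPM in ME. Of 10 mast cell and basophil markers, 6 were tested, 0 were higher and 2 were lower. They summed to 451 to 461 TPM in L28BME and 525 to 558 TPM in ME. The part of these cells in the Il4 and Il13 values was not tested. Il4i1, the gene of an amino acid oxidase induced by IL-4, averaged 1.41 ± 0.123 TPM in L28BME and 1.56 ± 0.166 TPM in ME, and it shares exonic bases on the same strand with Nup62, so that its level is uncertain.

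In the IL-10 family, 4 of 11 members were tested and 1 was called. Of all genes tested, 14.9% were called. Il10ra (ENSMUSG00000032089), the chain that binds IL-10, was at 12.9, 13.4 and 13.7 TPM in L28BME, against 15.3, 16.3 and 16.02 TPM in ME. It was lower in each L28BME library, with a small difference (log2 fold change -0.23, SE 0.058, limma adjusted p = 0.0464). The call was lost without any 1 library (limma adjusted p = 0.0766 to 0.137). Il10rb, the chain it shares with the IL-22 receptor, was at 63.6, 56.2 and 60.9 TPM in L28BME, against 47.2, 70.9 and 74.002 TPM in ME, with ME on both sides of L28BME (limma adjusted p = 0.853). Il20ra averaged 1.70 ± 0.299 TPM in L28BME and 1.02 ± 0.397 TPM in ME (limma adjusted p = 0.170), and Il20rb averaged 3.53 ± 0.832 TPM in L28BME and 4.15 ± 0.746 TPM in ME (limma adjusted p = 0.513). Both encode chains of the IL-20 receptors. Il10 was at most 0.259 TPM, and Il20, Il22 and Il24 were listed at 0.

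The IL-17 family was present mainly as its shared receptor. Of its 11 members, 2 were tested, with 0 calls by limma and 1 gene, Il17ra, lower at an unadjusted p under 0.05. Of all genes tested, 14.9% were called, so 0 calls among 2 genes say little about the family. Il17ra was at 67.9, 66.8 and 69.2 TPM in L28BME, against 74.9, 75.4 and 72.9 TPM in ME. The groups did not overlap and the difference was small and not called (log2 fold change -0.13, SE 0.035, limma adjusted p = 0.0625). Il17re, the receptor chain of IL-17C, averaged 1.37 ± 0.215 TPM in L28BME and 1.54 ± 0.259 TPM in ME (limma adjusted p = 0.656). The ligand genes Il17a, Il17b, Il17d, Il17f and Il25 were listed at 0, and Il17c was at most 0.329 TPM.

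Il16 (ENSMUSG00000001741) was the most abundant ligand gene. It encodes a PDZ domain precursor from which a chemoattractant for CD4+ cells is cut, and it is unrelated to the other families. Its values were 73.6, 77.5 and 69.6 TPM in L28BME, against 58.2, 60.4 and 63.4 TPM in ME. The groups did not overlap, and the rise was 1.21-fold (log2 fold change 0.27, SE 0.056, limma adjusted p = 0.0260). That call was lost without L28BME replicate 1 or 2 or ME replicate 1 or 2 (limma adjusted p = 0.0703 to 0.0810). The growth factor genes Il3, Il34, Il2 and Il9 were listed at 0, and Il5, Il7, Il11 and Il19 were at most 0.285 TPM.

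LIN28B is known for its action on let-7, so let-7 seed matches were counted in the annotated 3′ UTRs of the members. The mature let-7 family shares its seed (bases 2 to 8, in capitals), as in the RefSeq entry of mmu-let-7a-5p (GRCm38.p6). The table holds 9 family names that carry this seed: let-7a to let-7g, let-7i and miR-98.
mmu-let-7a-5p: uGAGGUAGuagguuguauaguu
The matching site is CTACCTC, and it is followed by an A in the strongest form. Of the 36 tested members, 4 (11.1%) had a site: Il12a, Il17ra, Il4ra and Il20rb. Of 10866 tested protein-coding genes with a 3′ UTR, 11.2% had one. The 4 members called higher held 1 gene with a site, Il12a, and the 6 called lower held 0. Of 43 untested members with a 3′ UTR, 4 had a site: Il13, Il7, Il1a and Il1f5. The sites followed by an A in Il12a (chr3:68698189-68698210, plus strand), Il17ra (chr6:120486079-120486100, plus strand) and the untested Il13 (chr11:53631609-53631630, minus strand), Il7 (chr3:7571734-7571755, minus strand) and Il1a (chr2:129300230-129300251, minus strand) are shown with their 5′ context, with the seed match in capitals (GRCm38).
Il12a: caaaggtggcacagCTACCTCa
Il17ra: caccacattagttcCTACCTCa
Il13: tatacataactctgCTACCTCa
Il7: cgattttatcagtcCTACCTCa
Il1a: tagctacatctttcCTACCTCa
These genes had unlike values: Il12a was called higher, Il17ra was lower in each L28BME library without being called, and Il13, Il7 and Il1a did not pass the filter. Il7 was at 0.0513, 0.0974 and 0.0951 TPM in L28BME, against 0.258, 0.249 and 0.285 TPM in ME, lower in every L28BME library where Il13 was higher. Il1a was listed at 0 in all but 1 L28BME library. A match says nothing on whether a site is used, and let-7 itself was not measured.

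Downstream genes were read from a list of 69 signalling and partner genes, of which 60 were tested, 10 were higher and 4 were lower, with a median log2 fold change of 0.0058. That is 23.3% called, against 14.9% of all genes, with 16.7% higher, against 8.28% of all genes, and 6.67% lower, against 6.6% of all genes. The kinase that pairs with the common gamma chain rose. Jak3 was at 22.8, 21.8 and 22.2 TPM in L28BME, against 14.6, 15.8 and 14.4 TPM in ME (log2 fold change 0.55, limma adjusted p = 0.00311). Of the other JAK genes, Jak2 rose by less (log2 fold change 0.27, limma adjusted p = 0.0339), Jak1 fell (log2 fold change -0.16, limma adjusted p = 0.0273) and Tyk2 was not called. Of the 7 STAT genes, 0 were called by limma, while at an unadjusted p under 0.05 there were 2 higher and 3 lower. The nearest to a call was Stat3, at 94.2 TPM in L28BME and 85.4 TPM in ME (limma adjusted p = 0.0534).

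Among 12 tested inhibitors and phosphatases, 3 were higher and 0 lower by limma, and 4 and 0 at an unadjusted p under 0.05. Of all genes tested, 8.28% were higher and 6.6% lower. Sh2b3 encodes LNK, a brake on cytokine receptor signalling in blood progenitors, and averaged 43.6 ± 1.304 TPM in L28BME and 27.8 ± 2.38 TPM in ME (log2 fold change 0.64, limma adjusted p = 0.00317, n = 3 each). Socs3, an inhibitor of gp130 signalling, averaged 25.3 ± 0.663 TPM in L28BME and 20.9 ± 0.839 TPM in ME (limma adjusted p = 0.0250). Ptpn11, which encodes the phosphatase SHP2, averaged 101.5 ± 1.13 TPM in L28BME and 90.3 ± 2.08 TPM in ME (limma adjusted p = 0.0245).

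Of 15 tested IL-1 and IL-18 adaptors and kinases, 1 was higher and 2 were lower, or 20% called, against 14.9% of all genes. Myd88, the adaptor of these receptors, averaged 64.9 ± 2.15 TPM in L28BME and 75.5 ± 1.07 TPM in ME (log2 fold change -0.21, limma adjusted p = 0.0185). Peli2, a ubiquitin ligase of the pathway, averaged 8.60 ± 0.479 TPM in L28BME and 10.9 ± 0.0918 TPM in ME (limma adjusted p = 0.0298). Sigirr, an inhibitory member of the receptor family, was higher, at 38.4 ± 1.82 TPM in L28BME and 32.5 ± 1.05 TPM in ME (limma adjusted p = 0.0368). Traf3ip2, which encodes the IL-17 adaptor Act1, averaged 2.84 ± 0.556 TPM in L28BME and 1.497 ± 0.191 TPM in ME (limma adjusted p = 0.0357). Gsdmd, the pore protein that releases IL-1 and IL-18, averaged 86.3 ± 2.93 TPM in L28BME and 71.7 ± 2.38 TPM in ME (limma adjusted p = 0.0134).

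Cytokine and receptor genes with other names were also read. Tslp encodes a cytokine whose receptor pairs its own chain with that of IL-7, and it was at 1.24, 0.971 and 1.24 TPM in L28BME, against 2.99, 3.47 and 2.78 TPM in ME. It was lower in every L28BME library (log2 fold change -0.92, limma adjusted p = 0.00525). Csf1r, the receptor of CSF1 and IL-34, averaged 26.8 ± 0.840 TPM in L28BME and 22.2 ± 1.07 TPM in ME (limma adjusted p = 0.0309). Jak3, Sh2b3, Gsdmd, Ebi3 and Tslp stayed called without any 1 library. Socs3, Peli2, Sigirr, Traf3ip2 and Csf1r lost the call in all 6 such fits (limma adjusted p = 0.0534 to 0.108). Jak2 and Myd88 kept it only without L28BME replicate 3, Jak1 only without ME replicate 1 and Ptpn11 only without ME replicate 3.

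**Figure D5:**
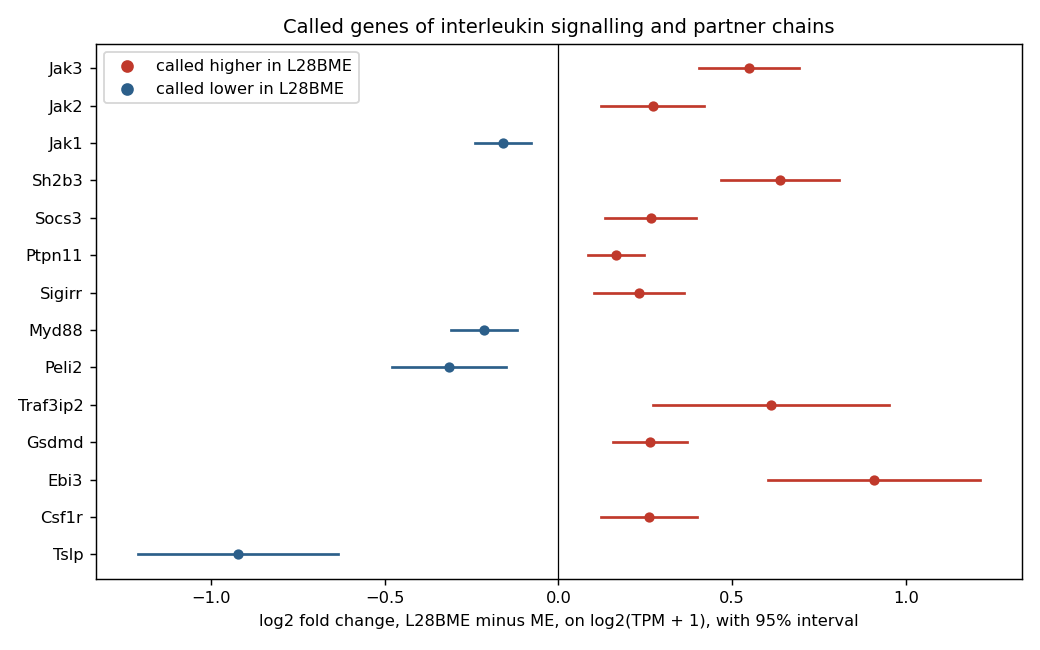
Log2 fold change, L28BME minus ME, of the 14 called genes of the signalling and partner list, on the log2(TPM + 1) scale with 95% intervals from limma (3 libraries per group). Ebi3, Sh2b3, Traf3ip2 and Jak3 lie above 0.5, Tslp is the lowest, and the others lie within 0.4 of 0.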

How the data were processed

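RNA was isolated with a Norgen single-cell kit and libraries were made with TruSeq Stranded mRNA, per the labels' protocols. The deposited TPM were made by the authors, 1 column per library, and sum to 999919 to 999996. The submitters' processing notes name bcl2fastq, HISAT2, StringTie, DESeq2 and GRCm38; the sources used here give no versions and do not state whether strand was used.

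The table holds 60496 entries for 55471 gene IDs, of which 431 IDs had more than 1 entry and 0 had values on more than 1. The 13348 genes that reached 1 TPM in at least 3 of 6 libraries were fitted as log2(TPM + 1) with limma 3.58.1 in R 4.3.3 (intensity trend, two-sided) and adjusted by the Benjamini-Hochberg method over all of them. The procedure was tested on simulated data. Members and lists were chosen with earlier results of these data known. Every tested member is named, with values per library for called members and the 10 most abundant, as are members below the filter that reach 1 TPM in some library and every called signalling gene; other genes named were chosen after their values were seen. Roles are textbook background. Part of the marker values is not reported here. Positions and overlaps came from GENCODE M21 (GRCm38), promoters and microRNAs from RefSeq (GRCm38.p6). Figures used matplotlib 3.10.9 in Python 3.11.15. Alternatives changed the pseudocount, the filter, the scaling or the limma settings, or used a replicate block, summed overlapping genes, a minimum change of 1.2-fold and leaving out each library.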

Additional observations from a re-analysis of the deposited data

How the results depend on the processing

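The 10 called members kept their sign in all 179 alternative values and passed the test in 140 of them. Settings that changed only the filter, the limma settings, the replicate block or the minimum change left the log2 fold change as it was. In those settings the sign could not turn, so only the test result can speak there. Without 1 library, members called higher ranged from 2 to 4 (4 with all libraries) and lower from 3 to 5 (6 with all), signalling genes from 4 to 5 higher (10) and 1 to 2 lower (4), and all genes from 617 to 693 higher (1105) and 461 to 582 lower (881). The count of 2 higher members came without L28BME replicate 1 or ME replicate 1, and that of 5 lower members without ME replicate 1. With a minimum change of 1.2-fold, 2 members were higher and 2 lower, signalling genes were 3 and 1, and all genes 245 and 144. Same-numbered libraries did not deviate together (correlations -0.032, -0.074 and -0.052 across genes), so the numbers were not taken as pairs. With the replicate number as a block, members called were 3 higher and 3 lower, signalling genes 4 and 1, and all genes 548 and 400.

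Signs turned only in 7 members that were not called. With 1 library left out, the log2 fold change ranged from -0.0042 to 0.11 for Il2rg, -0.46 to 0.12 for Il18, -0.26 to 0.056 for Il10rb, -0.080 to 0.021 for Il18rap, -0.051 to 0.071 for Il1rap, -0.31 to 0.095 for Il6ra and -0.16 to 0.18 for Il15ra. Summing overlapping genes gave 0.013 for Il10rb. The cause was not tested. The differences in summed TPM kept their sign throughout. Without 1 library they ranged from 31.7 to 42.9 TPM for ligands (35.9 with all), from -36.2 (without ME replicate 1) to -10.7 (without ME replicate 3) for receptors (-22.6) and from -0.689 to -0.162 (without L28BME replicate 3) for other members (-0.485). Depth is unknown, which limits what can be said of genes near 1 TPM.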

Other observations

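In the pairs of neighbouring members looked at elsewhere in the genome, no call was shared. Other neighbouring members were not looked at. Il4ra and Il21r are neighbours on chromosome 7, 23.95 kb apart on the same strand, and Il21r was called higher while Il4ra was at 53.4 ± 0.842 TPM in L28BME and 50.5 ± 1.22 TPM in ME (SD, n = 3 each). On chromosome 13, Il6st and Il31ra lie 9.81 kb apart on opposite strands, and of the pair Il31ra was called, a gene that passed the filter only through ME and lost its call when summed with the overlapping Gm3226 (limma adjusted p = 0.132). Il2ra and Il15ra lie 12.1 kb apart on chromosome 2 and neither was called by limma (adjusted p = 0.571 and 0.948).

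Chains of the IL-12 and IL-18 receptors differed in level. Il12rb2 averaged 26.7 ± 0.795 TPM in L28BME and 22.9 ± 1.48 TPM in ME, while Il12rb1 was at most 0.103 TPM in any library. Il18rap averaged 33.8 ± 2.51 TPM in L28BME and 34.3 ± 1.62 TPM in ME, and the ratio of Il18r1 to Il18rap TPM was 0.0601 to 0.117 in L28BME and 0.119 to 0.173 in ME.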
